A study of Mus musculus with 6 samples.

Results

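The small GTPases Rab27a and Rab27b and the proteins that bind their active form were followed through pancreatic islets of control and Dpy30 knockout mice at postnatal day 24. The set holds 10 genes of the 16430 that had enough reads to be tested: the GTPases Rab27a and Rab27b, the synaptotagmin-like proteins Sytl1, Sytl2, Sytl4 and Sytl5, the Slac2 proteins Mlph, Myrip and Exph5, and Rph3al. Members were matched by gene symbol, and all 10 passed the filter on low counts. One of them, Mlph, was chosen by its measured fall in these same libraries. Its values are therefore given as a description with no test. Counts below of members called, or whose groups did not overlap, are over the 9 other members. Dpy30 is a core subunit of the MLL and SET1 complexes that methylate histone H3 at lysine 4, a mark of active promoters. Each group had 3 poly(A) RNA libraries, each from the handpicked islets of 1 male C57BL/6 mouse, 100 to 200 islets per mouse. The labels give the genotypes as control and Dpy30 knockout, and name neither the deleted part of the gene nor the cells in which it was deleted.

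Rab27 proteins sit on the membrane of secretory granules and of pigment granules. When loaded with GTP they recruit effectors, which tether the granule to the plasma membrane or link it to myosin motors on cortical actin. In islets the system is best known for the docking of insulin granules by granuphilin, the product of Sytl4, and for the hormone secretion defects of mice that lack Rab27a. In melanocytes Rab27a, melanophilin (the product of Mlph) and myosin Va form the chain that carries melanosomes to the cell edge.

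Libraries held 24575889 to 25354384 estimated reads in the control and 17131515 to 23976598 in the knockout group. Summed over the whole of Dpy30, the level had a log2 fold change (knockout minus control throughout) of 0.40 ± 0.23, which did not pass the test (SE, edgeR adjusted p = 0.298). Knockout 2 was the highest library, at 53.19 CPM against 25.62 to 31.87 CPM in the others, and without it the log2 fold change was 0.10 (edgeR adjusted p = 0.685). With an offset for transcript length it was 0.99 (edgeR adjusted p = 0.0296). The transcript Dpy30-205, which lacks the 143 bp exon 4 of Dpy30-206 (chromosome 17, 74307720 to 74307862, GRCm38), took 2.88 ± 2.59% of the gene's reads in control and 79.8 ± 0.469% in knockout libraries (SD, n = 3 each). The insulin genes took 13.6 to 21.9% of all reads in control and 6.51 to 9.66% in knockout libraries. Knockout 2 stood apart in that Gm42418, a locus known to overlap ribosomal RNA, took 14.7% of its reads, against 0.099 to 0.236% elsewhere. Summed acinar markers ran from 956 to 3366 CPM (read counts scaled to library size) in control and from 2280 to 14518 in knockout libraries, with the highest value in knockout 3.

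The sequences just upstream of 3 members are shown because these genes carried the larger changes described below: Mlph, Sytl1 and Rab27a. RefSeq promoter windows on GRCm38.p6, from 250 bases before to 50 bases after a start site, were found for 8 of the 10 members, in 9 windows. The hexamer CACGTG, a palindrome that reads the same on both strands and is known as an E-box bound by many basic helix-loop-helix factors, was searched in each. It occurred in 2 of the 9 windows, that of the picked member Mlph included, against 7.15% of all 32851 windows of that length. This difference was not tested. In the Mlph window its first base lay 48 bases before the RefSeq start, and in the second Rab27a window 246 bases before. Each printed stretch begins at the upstream end of its window and stops before the RefSeq start and before any exon of the gene in GENCODE, so that it can end short of the RefSeq start. The hexamer is in capitals. Mlph was read at chr1:90914850-90915084 on the plus strand, Rab27a at chr9:73044560-73044809 and chr9:73063898-73064147 on the plus strand, and Sytl1 at chr4:133263114-133263337 on the minus strand, each 5′ to 3′.
Mlph: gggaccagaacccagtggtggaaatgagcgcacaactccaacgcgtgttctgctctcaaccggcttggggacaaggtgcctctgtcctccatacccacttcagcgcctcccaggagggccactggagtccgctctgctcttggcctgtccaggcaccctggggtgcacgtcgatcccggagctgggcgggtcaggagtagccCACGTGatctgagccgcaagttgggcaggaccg
Rab27a, upstream start: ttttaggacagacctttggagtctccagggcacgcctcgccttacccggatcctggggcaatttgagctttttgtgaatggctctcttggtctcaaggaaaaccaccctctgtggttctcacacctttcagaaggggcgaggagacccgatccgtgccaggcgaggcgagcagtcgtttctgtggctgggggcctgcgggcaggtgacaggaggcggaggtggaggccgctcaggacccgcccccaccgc
Rab27a, downstream start: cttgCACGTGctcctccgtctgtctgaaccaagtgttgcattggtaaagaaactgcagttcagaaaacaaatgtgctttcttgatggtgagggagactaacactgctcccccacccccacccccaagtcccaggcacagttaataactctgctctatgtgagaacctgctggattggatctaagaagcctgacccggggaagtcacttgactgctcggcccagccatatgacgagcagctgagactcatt
Sytl1: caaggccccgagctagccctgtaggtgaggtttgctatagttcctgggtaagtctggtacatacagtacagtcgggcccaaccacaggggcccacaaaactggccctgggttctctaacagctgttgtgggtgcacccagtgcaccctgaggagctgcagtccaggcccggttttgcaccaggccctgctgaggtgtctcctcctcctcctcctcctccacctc
The Rab27a transcript that held most of that gene's reads, Rab27a-201 (89.5 ± 1.60% in control and 87.5 ± 2.53% in knockout libraries, SD, n = 3 each), starts at 73044857, inside the upstream RefSeq window (73044560 to 73044859). That window holds no CACGTG. CpG dinucleotides, at which promoters of widely expressed genes are often dense, numbered 48 in the Myrip window, 18 and 6 in those of Rab27a, 15 in Mlph, 11 in Exph5, 7 in Sytl4, 5 each in Sytl1 and Rph3al and 1 in Sytl5. Over all windows the median was 7, with quartiles of 3 and 20. Mlph and the upstream Rab27a window lay above that median, and Sytl1 and the downstream Rab27a window below it, all between the quartiles. A link between CpG number and the falls was not tested.

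The members, and the lists of related genes used below, were chosen with earlier results of these data known. Counts over them, set beside the shares of all genes, are therefore descriptions and no test of the set. Among the GTPases and effectors other than Mlph, 4 of 9 were lower in the knockout islets (Sytl1, Rab27a, Sytl4 and Rph3al), and 0 were higher. Of all tested genes, 5.84% were called lower, 4.1% higher and 9.95% in either direction by the same rule, an edgeR adjusted p below 0.05 over all 16430 genes. None of the 9 was higher even at an unadjusted p below 0.05, and DESeq2 and limma-voom also called 0 higher. At that unadjusted level 5 of 9 were lower, against 13.5% of all genes. The fitted fold change was below 0 for 9 of 9 members, against 49.5% of all genes, and the median log2 fold change was -0.56, against 0.01 over all genes. The control and knockout libraries did not overlap, with the knockout lower, for 5 of 9 members (the 4 above and Myrip), against 17.2% of all genes. Non-overlap with the knockout higher was seen for 0 of 9, against 17.6% of all genes. In bulk islets, fewer cells of a type and less RNA per cell cannot be told apart. Summed beta cell markers ran from 158221 to 260879 CPM in control and from 70026 to 120067 CPM in knockout libraries, delta markers from 3117 to 3445 and from 1458 to 1873, and alpha markers from 36535 to 65625 and from 24359 to 29305. Most of the beta sum was Ins1 and Ins2, most of the alpha sum Gcg and most of the delta sum Sst. Single beta and alpha markers did not all move alike. Of 8 beta markers 2 were called lower (Slc2a2 and Ucn3) and 0 higher, with a log2 fold change of 0.59 for Mafa (edgeR adjusted p = 0.097). Of 5 alpha markers 1 was called higher (Gc, 1.90, edgeR adjusted p = 0.000888). Of 4 delta markers 2 were called lower (Sst and Rbp4) and 0 higher, and all 4 were lower at an unadjusted p below 0.05. Endothelial markers summed to 395 to 494 CPM in control and 492 to 666 CPM in knockout libraries (2 of 5 called higher), and mesenchymal markers to 188 to 409 and 334 to 702 CPM (1 of 6 called higher). The part of any cell type in the members' falls was not tested, though 1 fit given below took the acinar markers as a covariate.

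**Figure D1:**
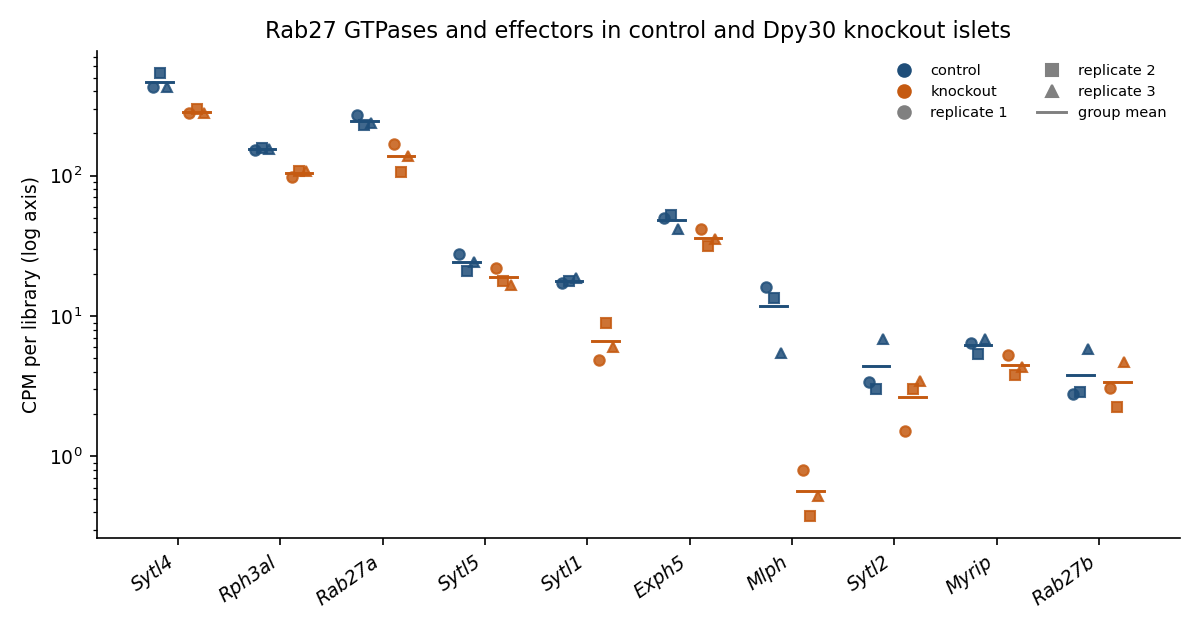
Level of each member in every library, in TMM-scaled CPM on a log axis. Blue symbols are control and orange symbols knockout libraries, the shape gives the replicate number, bars are group means, and genes are ordered by their length-scaled level in control islets. The 3 knockout points lie below all 3 control points for Sytl4, Rph3al, Rab27a, Sytl1, Myrip and Mlph.

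The number of members called lower moved with the libraries and the model. It was 4 with RLE normalization (5.91% of all genes called lower), DESeq2 (7.85%), limma-voom (5.86%), no filter on low counts (3.6%) and the replicate number as a block (7.86%), and 3 with an offset for transcript length (4.95%). Without control 1, control 2 or control 3 it was 1 in each case (3.6%, 3.03% and 3.2% of all genes), and without knockout 1, 2 or 3 it was 2, 4 and 0 (3.51%, 4.62% and 2.75%). With the mean log2 CPM of the acinar markers as a covariate it was 0 (2.37%). There the log2 fold changes were -1.25 for Sytl1 (edgeR adjusted p = 0.0769), -0.95 for Rab27a (0.0947), -0.74 for Sytl4 (0.096) and -0.57 for Rph3al (0.109).

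Of the GTPases themselves, Rab27a made up nearly all of the message. Levels between genes are compared here in TPM, the deposited abundance scaled for transcript length. Rab27a stood at 97.5, 67.6 and 82.4 TPM in the control libraries and Rab27b at 0.642, 0.547 and 1.36. Rab27a was 99.3, 99.2 and 98.4% of their sum in control and 98.9, 98.8 and 97.7% in knockout libraries. These shares overlapped (exact two-sided permutation test, p = 0.4, adjusted over 2 ratios p = 0.6).

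Rab27a (chromosome 9, 73044854 to 73097629, plus strand, GRCm38) fell in the knockout islets. It had 271.9, 230.1 and 235.8 CPM in control and 168.3, 106.6 and 137.9 CPM in knockout libraries, TMM-scaled. All knockout libraries lay below all controls, and knockout 2 was the lowest. The log2 fold change was -0.84 ± 0.19 (SE, edgeR adjusted p = 0.0311), which put the knockout at 56% of the control level. Dropping 1 library at a time left the call in 2 of 6 fits, with adjusted p from 0.0292 to 0.101. It was lost without control 1, 2 or 3 (0.0885, 0.0735 and 0.0784) and without knockout 3, the library with the most acinar signal (0.101). Without knockout 2, the library rich in Gm42418 reads, the log2 fold change was -0.68 (edgeR adjusted p = 0.0459), and with the transcript length offset it was -0.80 (0.054).

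Rab27b, the paralogue that serves many secretory cells outside the pigment system, did not pass the test. It had 2.796, 2.885 and 5.79 CPM in control and 3.091, 2.269 and 4.739 CPM in knockout libraries, a log2 fold change of -0.17 ± 0.40 (SE, edgeR adjusted p = 0.818). The groups overlapped, replicate 3 was the highest in each, and the sign turned without control 3 (0.25) or without knockout 2 (0.03). Of 6 markers of mast cells and platelets, which are rich in Rab27b, the mast cell genes Cpa3, Tpsb2 and Mcpt4 had at most 4 reads in every library, and Tpsb2 had 0 in all. Kit, which other cells also make, had 17.4 to 33.8 CPM in control and 11.66 to 21.84 CPM in knockout libraries. The platelet genes Itga2b and Pf4 had 0.9855 to 1.805 CPM and 0.08213 to 0.6422 CPM over the 6 libraries. The whole list summed to 18.7 to 35.6 CPM in control and 13.7 to 23.6 CPM in knockout libraries, and its part in the level of Rab27b was not tested.

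The synaptotagmin-like proteins bind Rab27 through an amino-terminal domain and phospholipids through C2 domains. Sytl4, which encodes granuphilin, was the most abundant member, at 133, 144 and 136 TPM in control libraries. On the scale used for testing it had 425.6, 540.2 and 426.5 CPM in control and 280.9, 299.5 and 279.5 CPM in knockout islets. The knockout libraries lay close together and below every control. Its log2 fold change was -0.70 ± 0.16 (SE, edgeR adjusted p = 0.0308), or 61.8% of the control level. Only the fit without knockout 2 kept this call among the 6 that left out a library (0.044), and the adjusted p reached 0.113.

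Sytl1 fell furthest among the tested members. This gene, which encodes Slp1 (also called JFC1), had 17.27, 17.87 and 18.6 CPM in control and 4.857, 8.948 and 6.018 CPM in knockout libraries. The controls agreed within a narrow range, and the highest knockout library was still well below them. The log2 fold change was -1.45 ± 0.24 (SE, edgeR adjusted p = 0.0109), or 36.9% of the control level. It was called in 5 of 6 fits that left out a library, the exception being the fit without knockout 3 (0.0533). By mean TPM it was 5th of the 10 members in control islets (8.86 ± 0.915) and 6th in knockout islets (3.89 ± 0.405, SD, n = 3 each). Its promoter-proximal sequence, printed above, held no CACGTG.

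Sytl5 and Sytl2 did not pass the test. Sytl5 had 27.62, 20.93 and 24.39 CPM in control and 22.12, 17.83 and 16.7 CPM in knockout libraries, which overlapped, with a log2 fold change of -0.36 ± 0.17 (SE, edgeR adjusted p = 0.218). Sytl2, whose product has been placed on glucagon granules of alpha cells, had 3.38, 3.014 and 6.817 CPM in control and 1.525, 3.025 and 3.46 CPM in knockout libraries. Control 3 was high, the groups overlapped, and the log2 fold change was -0.72 ± 0.43 (SE, edgeR adjusted p = 0.317). The reads of Sytl2 were spread over 13 of its 19 annotated transcripts. In the authors' deposited table Sytl2 had a log2 fold change of -0.77 and an adjusted p of 0.0161, a call that the edgeR fit did not make.

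The Slac2 group joins Rab27 to actin and myosin. Mlph (chromosome 1, 90915085 to 90951142, plus strand) was the member picked for its fall. It had 16.23, 13.52 and 5.42 CPM in control and 0.8028, 0.3781 and 0.5266 CPM in knockout libraries. The control libraries held 389, 314 and 132 estimated reads and the knockout libraries 20, 6 and 14. Control 3 had the lowest control value, yet lay above every knockout library. The means were 11.72 ± 5.625 and 0.5691 ± 0.2155 CPM (SD, n = 3 each), and the fitted log2 fold change was -4.32 ± 0.50 (SE). This was the 5th lowest of the 11597 tested genes with a mean of at least 5 CPM, and ran from -4.89 to -4.02 over 13 other settings. By mean TPM Mlph was 7th of the 10 members in control (2.48 ± 1.23) and 10th in knockout islets (0.153 ± 0.0833, SD, n = 3 each).

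Markers of melanocytes, the cells best known for Mlph, did not move together. Of 7 markers, 4 (Tyr, Tyrp1, Mlana and Slc45a2) had at most 4 reads in every library, and Slc45a2 had 0 in all. The other 3 were tested. Dct, the dopachrome tautomerase gene, which was singled out after its values were seen, had 10.22, 9.172 and 8.747 CPM in control and 1.606, 2.206 and 1.918 CPM in knockout libraries, a log2 fold change of -2.30 ± 0.24 (SE, edgeR adjusted p = 0.00204). Mitf, a transcription factor of melanocytes that other cells also make, had 8.387, 7.838 and 5.954 CPM in control and 13.73, 9.39 and 10.23 CPM in knockout libraries (log2 fold change 0.59, edgeR adjusted p = 0.149), with no overlap. Pmel had a log2 fold change of 0.48 (edgeR adjusted p = 0.441). The summed melanocyte list ran from 16.1 to 19.4 CPM in control and from 13.3 to 17 CPM in knockout libraries, and its part in the fall of Mlph was not tested.

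The other Slac2 genes did not pass the test. Myrip encodes Slac2-c, which couples granules to myosin Va and myosin VIIa. It had 6.468, 5.34 and 6.899 CPM in control and 5.258, 3.781 and 4.363 CPM in knockout libraries, with a log2 fold change of -0.48 ± 0.24 (SE, edgeR adjusted p = 0.235). All its knockout libraries lay below the controls by a small margin. With the transcript length offset the log2 fold change of Myrip was -0.19 (edgeR adjusted p = 0.75). Exph5, which encodes Slac2-b, had 50.07, 52.49 and 41.56 CPM in control and 41.99, 31.45 and 35.24 CPM in knockout libraries. Its groups overlapped between control 3 and knockout 1, and the log2 fold change was -0.41 ± 0.16 (SE, edgeR adjusted p = 0.142, unadjusted p = 0.0323). Exph5 was the most abundant Slac2 gene, at 7.88 ± 0.691 TPM in control islets against 1.25 ± 0.322 for Myrip (SD, n = 3 each).

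Rph3al encodes Noc2, an effector shared by Rab3 and Rab27 that is needed for regulated hormone release. It had 151.8, 158.2 and 155.2 CPM in control and 98.62, 108.4 and 108.5 CPM in knockout libraries. Both groups were tight and well separated. The log2 fold change was -0.56 ± 0.12 (SE, edgeR adjusted p = 0.028), or 67.8% of the control level. As for Sytl4, only the fit without knockout 2 kept the call among those that left out a library (0.0342), with an adjusted p of up to 0.105 and log2 fold changes from -0.58 to -0.52 over all 13 settings.

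In TPM, the control order was Sytl4 (138 ± 5.75), Rph3al (88.3 ± 6.25), Rab27a (82.5 ± 15.0), Sytl5 (10.4 ± 2.17), Sytl1 (8.86 ± 0.915), Exph5 (7.88 ± 0.691), Mlph (2.48 ± 1.23), Sytl2 (1.76 ± 0.825), Myrip (1.25 ± 0.322) and Rab27b (0.848 ± 0.442; SD, n = 3 each). Sytl4, Rph3al and Rab27a were the abundant members. Rph3al and Rab27a overlapped between libraries, as did neighbours from Sytl5 to Exph5 and from Mlph to Rab27b. Since TPM of all genes sums to the same total in each library, a lower share of insulin raises the other genes. Tests of single genes between the groups therefore used counts. TPM served for the order of the members within each group and for ratios and shares taken within a library. The ratio of all effectors other than Mlph to the summed GTPases was 2.62, 3.68 and 3.11 in control and 2.63, 4.72 and 3.41 in knockout libraries. These ratios overlapped (exact two-sided permutation test, p = 0.6, adjusted over 2 ratios p = 0.6), and with 3 against 3 libraries the smallest possible p is 0.1. Knockout 2 held the highest ratio: the difference of the means was 0.453 with it and -0.111 without it. Including Mlph changed them to 2.66, 3.72 and 3.12 and to 2.64, 4.72 and 3.42.

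The genes that switch Rab27 on and off or attach its lipid anchor moved little. Of 10 such genes 9 were tested, and 0 were called in either direction by edgeR (9.95% of all genes), DESeq2 or limma-voom. An unadjusted p below 0.05 was found for 0 of them, against 27.5% of all genes. Their median log2 fold change was 0.06. The 4 with the smallest p were Fam45a (0.27, edgeR adjusted p = 0.299), Madd, the exchange factor for Rab3 and Rab27 (0.34, 0.316), Rabggta, a subunit of the Rab prenylating enzyme (0.28, 0.345), and Tbc1d10a, a GTPase-activating protein for Rab27 (0.19, 0.582).

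Among other effectors and their partners, 1 of 11 tested genes was lower and 0 were higher, against 5.84% and 4.1% of all genes, and the median log2 fold change was -0.12. The gene called was Sytl3, another member of the synaptotagmin-like family. It had 2.671, 2.282 and 2.916 CPM in control and 0.5218, 0.5672 and 0.4513 CPM in knockout libraries, a log2 fold change of -2.35 ± 0.31 (SE, edgeR adjusted p = 0.0044), and was called in 6 of 6 fits that left out a library. Next came the actin nucleators Fmn2 (-0.71, edgeR adjusted p = 0.0825) and Spire1 (-0.44, 0.105) and the motor Myo7a (-0.42, 0.16), for each of which the groups did not overlap. Fmn2 was called with the replicate block (0.04), by DESeq2 (0.0242) and without the filter on low counts (0.0461). Myo5a, the motor bound by melanophilin and Myrip, had 89.34, 99.73 and 81.68 CPM in control and 104.7, 59.74 and 95.68 CPM in knockout libraries (log2 fold change -0.06, edgeR adjusted p = 0.894).

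Rab3 and other secretory Rabs and their regulators moved in both directions: 3 of 17 were lower and 2 higher, against 5.84% and 4.1% of all genes, with a median log2 fold change of -0.12. Rab37, a granule Rab related to Rab26, went from 207.8, 168.4 and 144.2 CPM in control to 50.9, 53.75 and 39.04 CPM in knockout libraries (log2 fold change -1.86, edgeR adjusted p = 0.0021). Rab3b went from 50.03, 34.45 and 35.48 CPM to 15.53, 11.97 and 17.11 CPM (-1.42, edgeR adjusted p = 0.00596), and Rab3d from 152.5, 205.8 and 192.6 CPM to 76.38, 66.48 and 92.07 CPM (-1.23, 0.00636). These 3 were called in 6 of 6 fits that left out a library and with the acinar covariate. Rab3c was higher in the knockout, at 36.13, 30.75 and 41.6 CPM against 18.78, 16.32 and 24.1 CPM in control (0.87, edgeR adjusted p = 0.0261, 2 of 6 fits). Rims1, a Rab3-binding scaffold of release sites that is named because only 2 genes were higher, stayed at or below 3.31 CPM in every library (1.80, edgeR adjusted p = 0.0303, 1 of 6 fits). Rab3a, the main neuronal form, did not pass the test (-0.12, edgeR adjusted p = 0.685).

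For granule docking and fusion, edgeR called 0 of 21 genes, against 9.95% of all genes. An unadjusted p below 0.05 was found for 7, against 27.5% of all genes. DESeq2 called 2 and limma-voom 0, and the median log2 fold change was -0.07. The smallest p belonged to the syntaxin Stx2 (0.57, edgeR adjusted p = 0.0542), the complexin Cplx2 (-1.20, 0.0677), the priming factor Cadps (-0.39, 0.106) and the syntaxin Stx4a (0.36, 0.109). Cplx2 was lowest in knockout 2, at 153.8 CPM, against 415.1 and 408.2 CPM in the other knockouts and 670 to 806 CPM in control libraries. Without knockout 2 its log2 fold change was -0.86 and passed the test (edgeR adjusted p = 0.0228). Cplx2 was also called with the replicate block (0.0418), by DESeq2 (0.00261) and without the filter on low counts (0.0129), and Stx2 with the replicate block (0.0339) and by DESeq2 (0.0234).

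**Figure D2:**
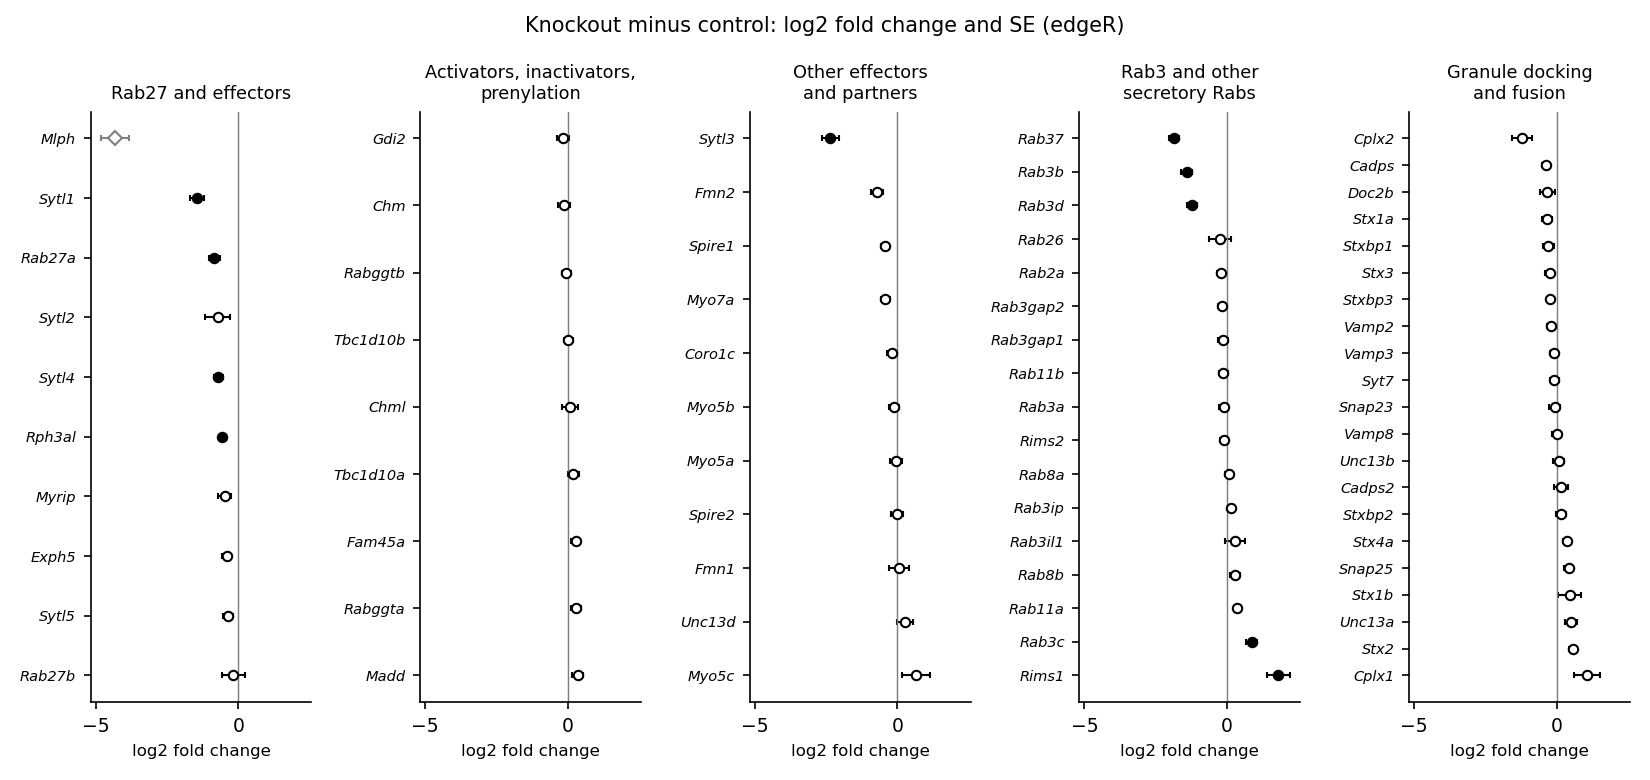
Log2 fold change, knockout minus control, with its standard error for the members and for 4 lists of related genes, by edgeR. Filled circles have an adjusted p below 0.05 over all tested genes, open circles do not, and the grey diamond is Mlph, which was not tested. All 10 members lie left of 0, and the list of activators, inactivators and prenylation genes lies between -0.17 and 0.34.

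Within the genes, the share of reads held by each transcript mostly overlapped between the groups. Of 11 transcripts of 7 tested members, 2 did not overlap, both of Rph3al. By the same rule, 12.1% of transcripts did not overlap over all genes with 2 or more transcripts. Shares within a gene trade against each other, so the 2 transcripts of Rph3al are not independent. Rph3al-204, which starts at 75937738 on the minus strand of chromosome 11, held 68.4, 68.8 and 69.1% of the gene's reads in control and 70.7, 69.9 and 72.4% in knockout libraries. Rph3al-201, which starts at 75925891, held 15.9, 15.9 and 16.3% and 14.9, 14.1 and 14.8% (both exact permutation p = 0.1, the smallest that 3 against 3 allows). The shifts were 2.22 and -1.46 percentage points. Shares computed from TPM left 1 transcript without overlap.

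Sytl4 showed larger but overlapping shifts. Its transcript Sytl4-201, which starts at 133981812, held 65.5, 65.7 and 51.5% of the reads in control and 53.6, 43.5 and 46.2% in knockout libraries (exact permutation p = 0.2). Sytl4-203, which starts at 133981783, took 26.9, 27.8 and 41.7% and 39.4, 48.5 and 48.4% (exact permutation p = 0.2). Control 3 sat with the knockouts on this measure. Sytl5 split its reads between Sytl5-201 and Sytl5-202, and the share of Sytl5-201 ranged from 24.5 to 70.5% among the controls alone. One transcript held nearly all reads in the remaining members compared, such as Sytl1-201 (95.4 ± 1.51% in control and 95.7 ± 1.86% in knockout libraries, SD, n = 3 each).

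**Figure D3:**
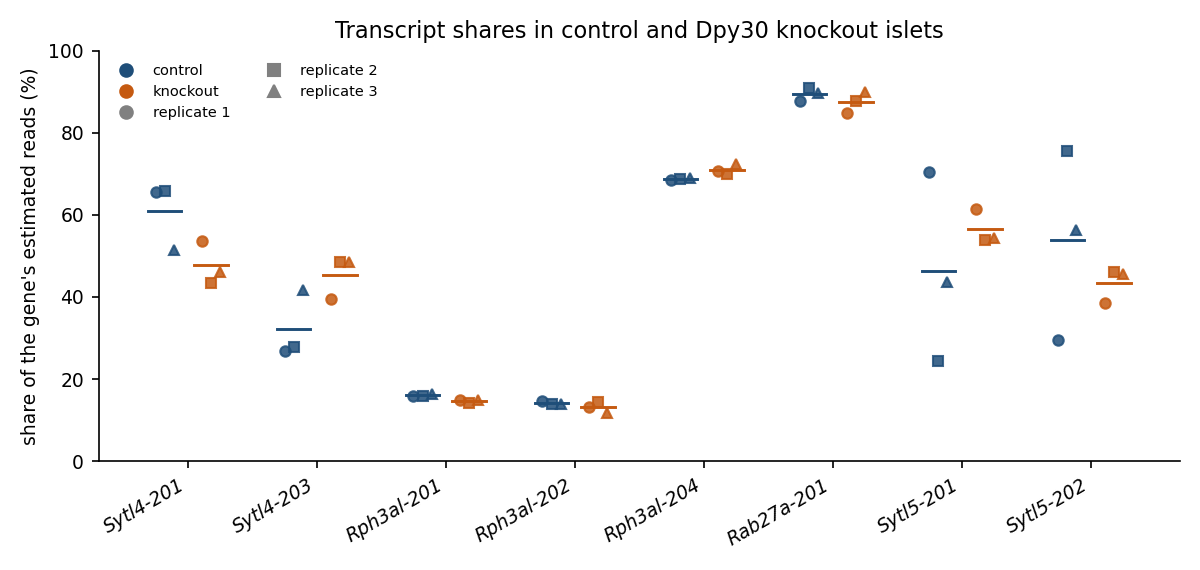
Share of a gene's estimated reads, in percent, held by transcripts of Sytl4, Rph3al, Rab27a and Sytl5 in each library. Blue is control and orange knockout, shapes give the replicate number and bars are group means. The shares of Rph3al lie within a few points of each other, and those of Sytl5 spread widely among the controls.

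Genes next to the members were examined within 100 kb on either side, a window chosen with values in view. Of 40 tested neighbours, 5 were lower and 2 higher, a number to be read against 5.84% and 4.1% of all genes. The count depended on the window: of the 23 neighbours within 47594 bp of a member, 2 were lower and 2 higher. In the full window, those lower were Dyx1c1 near Rab27a, Rab17 near Mlph, Cd164l2 near Sytl1, Entpd3 near Myrip and Rpgr near Sytl5. Those higher were Tspan6 and Srpx2, both near Sytl4. Neighbours of Mlph and Sytl1 with the larger falls were singled out after their values were seen. Rab17, a Rab of epithelial cells, lies 6990 bp beyond the end of Mlph on the opposite strand (chromosome 1, 90958133 to 90969661). It had 2.504, 1.507 and 1.396 CPM in control and 0.2007, 0.4411 and 0.07522 CPM in knockout libraries, a log2 fold change of -3.01 ± 0.57 (SE, edgeR adjusted p = 0.0163). The Rab17 call was lost without knockout 1 (0.0583), without knockout 3 (0.056) and with the acinar covariate (0.0935). Cd164l2, 28534 bp from Sytl1, had 11.35, 9.431 and 10.23 CPM in control and 1.565, 2.71 and 1.429 CPM in knockout libraries (-2.46 ± 0.30, edgeR adjusted p = 0.00346), and was called in every one of the 13 other settings. It overlaps the start of Gpr3 on the other strand, and whether reads were assigned by strand is not stated in the labels or files used here. Between Cd164l2 and Sytl1 lies Map3k6, whose groups overlapped (log2 fold change 0.50, edgeR adjusted p = 0.445).

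**Figure D4:**
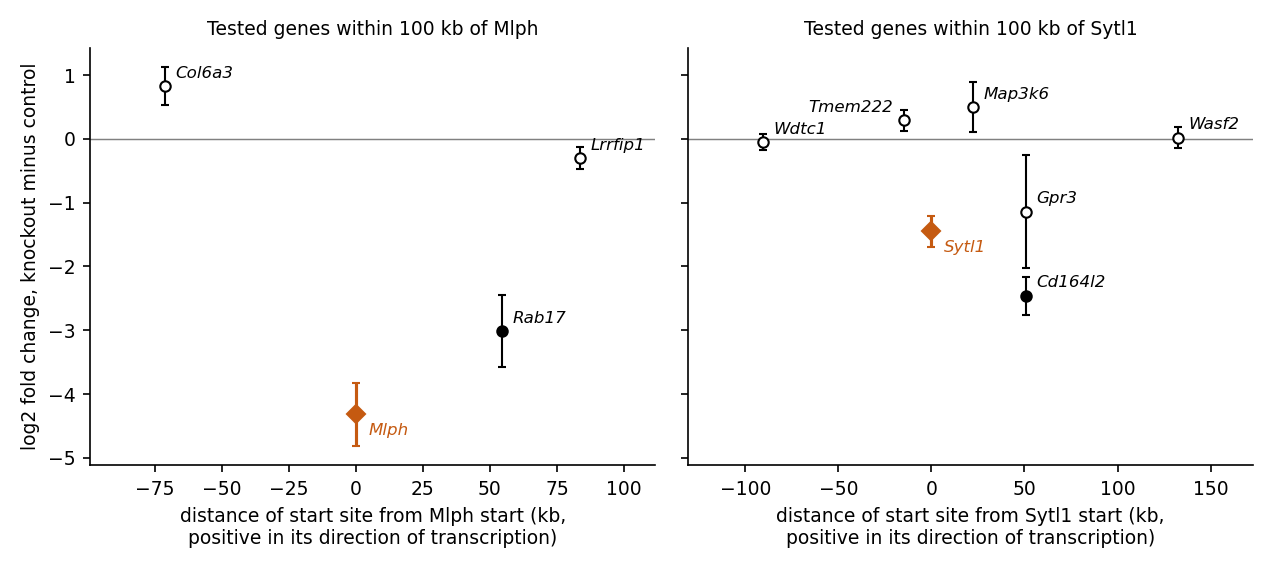
Log2 fold change, knockout minus control, with its standard error for tested genes whose nearest edge lies within 100 kb of Mlph or of Sytl1, against the distance of each start site from that of the member in kilobases, positive in its direction of transcription. Filled circles have an edgeR adjusted p below 0.05 and open circles do not, and orange diamonds are the members. Rab17 and Cd164l2 lie at -3.01 and -2.46, while the other neighbours drawn have open circles.

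Likeness to Mlph in log2 CPM was ranked over the 6 libraries, leaving out genes with Gm, Rik, Mir or clone-type names. Among the most alike were Arpc1a, a subunit of the Arp2/3 complex (Pearson r = 0.997), and Dusp26, a dual-specificity phosphatase (0.996). With them were Ank, a membrane transporter (0.996), and Peg3, an imprinted zinc finger gene (0.996). The points share their libraries and fall into the 2 genotypes, and 354 of 11596 genes of at least 5 CPM had an r above 0.95, so these values describe the shared fall together with the low value of control 3. Dusp26 shared that pattern plainly, with 49.99, 45.3 and 26.2 CPM in control and 5.86, 4.537 and 5.98 CPM in knockout libraries. Pearson r takes no account of the size of a fall, and the falls were smaller than that of Mlph (log2 fold change -4.32). The log2 fold changes were -2.88 for Dusp26, -0.85 for Peg3, -0.54 for Arpc1a and -0.49 for Ank. Ank did not pass the test (edgeR adjusted p = 0.0544). Of the members, r with Mlph was 0.94 for Rab27a, 0.93 for Sytl4 and Rph3al, 0.91 for Exph5 and 0.86 for Sytl1. It was 0.79 for Myrip and 0.77 for Sytl5, and 0 of the members compared exceeded 0.95. Rab27b and Sytl2 lay below 5 CPM and were not compared.

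The authors' deposited table gave the same direction for all 10 members. In the authors' deposited table the log2 fold changes were -4.29 for Mlph, -1.37 for Sytl1, -0.70 for Rab27a, -0.67 for Sytl4 and -0.54 for Rph3al. Values in the authors' deposited table were nearer to 0 for Myrip (-0.10, adjusted p = 0.79) and Rab27b (-0.07, 0.869), neither of which was called by either fit.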

How the data were processed

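The authors deposited Salmon quantifications for 6 libraries and a table of their own comparison. Per the file headers, the quantifications hold estimated counts (NumReads), TPM and effective lengths per transcript. The authors' deposited table holds log2 fold changes and adjusted p-values. Trimmomatic, Salmon, DESeq2 and GRCm38 (mm10) are named in the submitters' processing notes, without versions or settings.

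Transcripts were matched to GENCODE vM21 (139852 of 140948), and the deposited estimated counts of a gene's transcripts were added up, then rounded. Between 99.626 and 99.678% of reads were assigned to genes. Groups came from the genotype labels. The main test was edgeR 4.0.16 (R 4.3.3): TMM, filterByExpr with a minimum count of 10, quasi-likelihood fit on group, and Benjamini-Hochberg adjustment over 16430 tested genes of 31158 with a read. An adjusted p below 0.05 was called. The biological coefficient of variation was 0.26. The fit was tested on simulated data first. CPM are TMM-scaled. Alternatives were RLE normalization, DESeq2 1.42.0, limma-voom (limma 3.58.1), no filter, a replicate block, a transcript length offset, an acinar marker covariate and leaving out each library.

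Transcript shares used genes with at least 50 reads in every library and transcripts with a mean share of at least 10% in either group. They and the ratios were compared by exact permutation tests. Named genes were all members, up to 4 genes of each list with the smallest p, the 5 genes most like Mlph, and Dpy30. One of those 5, 1 gene of the list of activators, inactivators and prenylation genes and 1 alpha cell marker are not reported here, and the lists' counts, sums and medians leave them out. Other names were chosen after their values were seen. The members and lists were chosen with earlier results of these data known. The neighbour window, and the alternatives for listed and neighbouring genes, were added after seeing the data.

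Control and knockout libraries carry replicate numbers 1 to 3, and nothing in the labels ties equal numbers to one litter or day. Deviations from the group means of equally numbered libraries correlated at 0.427, 0.135 and 0.196, and those of other combinations at -0.318 to 0.14. They were therefore treated as paired in the block fit, on weak evidence. Promoter sequences are RefSeq, GRCm38.p6; sequences of Rab27b and Sytl2 and protein sequences were not used here.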

Additional observations from a re-analysis of the deposited data

How the results depend on the processing

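With 3 libraries a group, the 4 calls rest on few samples. The count of members lower in the knockout was 4 in the reported fit, fell to 0 with the acinar covariate, and ran from 0 to 4 when libraries were left out. The cause was not tested. With the replicate block, on the weak pairing of equally numbered libraries, it was 4, and the block changed no member's call, though it added Cplx2, Stx2 and Fmn2 among the listed genes. Members called higher were 0 under every alternative run. Transcripts of members whose shares did not overlap numbered 2 of 11, both of Rph3al, against 12.1% of transcripts over all genes with 2 or more transcripts. They numbered 1 with shares from TPM and 2 to 4 when libraries were left out. The share over all genes was not computed for these alternatives, and smaller groups separate more easily. The log2 fold change of Rab27b ran from -0.50 to 0.25 when libraries were left out, and was above 0 without control 3 (0.25) or knockout 2 (0.03). The other members, Mlph included, kept a negative fold change in all 13 alternatives. Low counts limit Rab27b, Sytl2, Myrip and, in knockout islets, Mlph.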
